A study of Rattus norvegicus with 32 samples.

Results

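Hmgcs1, Idi1, Fdps, Fdft1, Sqle, Lss, Cyp51 and Insig1 were described as a group of 8 cholesterol synthesis genes, taken by name from the 28914 gene names counted in the deposited files, and all 8 were present in every sample. RNA-seq was carried out on tissue from the nucleus accumbens (NAc), dentate gyrus (DG), Cornu Ammonis (CA) and subventricular zone (SVZ) of adult male Sprague-Dawley rats. METH animals received methamphetamine (10 mg/kg, 4 intraperitoneal injections, 2 h apart), Sal animals received saline on the same schedule, and brains were collected the day after the last injection. Each region had 4 METH and 4 Sal samples, 32 in all, and a sample is written as, for example, SVZ Sal 1 (the first saline sample of the SVZ). The tissues are dissected pieces holding many cell types, so fewer cells of one type and less RNA per cell cannot be told apart. The labels do not say which samples came from the same animal, so the p-values measure the spread between samples, some of which may be technical.

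Cholesterol does not cross from the blood into the adult brain in appreciable amounts, and brain cells make their own from acetyl-CoA by a long chain of enzymes. Oligodendrocytes need much of it for myelin, and astrocytes supply it to neurons. The enzymes of the chain are switched on together by SREBP transcription factors when sterols in the endoplasmic reticulum run low. Hmgcs1 makes HMG-CoA near the start of the chain, Idi1 and Fdps build the isoprenoid units, and Fdft1 joins farnesyl units to squalene. Sqle and Lss turn squalene into lanosterol, and Cyp51 removes a methyl group from lanosterol. Insig1 is not an enzyme of the chain. It is a membrane protein that holds the SREBP precursor back when sterols are plentiful, and its own gene is an SREBP target.

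On rn6, which the count files use, Hmgcs1 lies at chr2:52431601-52445055 (plus strand), Idi1 at chr17:57976268-57984036 (minus), Fdps at chr2:188392858-188413219 (minus) and Fdft1 at chr15:46339249-46367302 (minus). Sqle lies at chr7:99609191-99624732 (plus), Lss at chr20:12842884-12870497 (minus), Cyp51 at chr4:27175243-27194018 (plus) and Insig1 at chr4:342302-350515 (plus). Reads were counted over exons without regard to strand. Only Idi1 overlaps another gene: its 5′ end shares 100 of its 2811 exon bases (chr17:57983937-57984036) with Wdr37 on the opposite strand, and reads from these bases cannot be assigned to either gene.

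Promoter sequences of 6 of the 8 genes were taken from RefSeq (GRCr8, 250 bases before to 50 bases after the gene start), while those of Sqle and Fdft1 were not analysed here. The 4 printed are those of the gene with the largest METH difference in the SVZ (Idi1), the gene of the highest level (Hmgcs1), the regulator (Insig1) and the gene without a CCAAT box (Cyp51). Each is written 5′ to 3′ in the direction of the gene, and capitals mark CCAAT on either strand (ATTGG on the other strand).
Idi1: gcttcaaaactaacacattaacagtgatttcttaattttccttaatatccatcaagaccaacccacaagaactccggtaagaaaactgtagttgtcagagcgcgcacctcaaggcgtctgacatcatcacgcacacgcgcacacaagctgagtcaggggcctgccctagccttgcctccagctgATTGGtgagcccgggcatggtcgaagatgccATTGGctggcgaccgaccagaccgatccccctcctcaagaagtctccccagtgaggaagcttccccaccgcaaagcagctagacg
Hmgcs1: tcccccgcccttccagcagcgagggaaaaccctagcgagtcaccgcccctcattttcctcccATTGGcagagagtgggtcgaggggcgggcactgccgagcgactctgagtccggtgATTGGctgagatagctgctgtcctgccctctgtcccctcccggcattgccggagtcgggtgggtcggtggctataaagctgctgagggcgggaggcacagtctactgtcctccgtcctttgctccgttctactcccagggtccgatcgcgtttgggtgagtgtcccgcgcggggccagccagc
Insig1: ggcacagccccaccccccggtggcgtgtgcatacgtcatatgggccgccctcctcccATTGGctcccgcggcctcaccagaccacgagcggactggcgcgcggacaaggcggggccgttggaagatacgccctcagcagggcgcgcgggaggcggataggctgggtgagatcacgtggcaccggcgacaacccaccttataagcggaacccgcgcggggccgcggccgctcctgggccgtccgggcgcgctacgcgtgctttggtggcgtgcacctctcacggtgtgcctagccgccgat
Cyp51: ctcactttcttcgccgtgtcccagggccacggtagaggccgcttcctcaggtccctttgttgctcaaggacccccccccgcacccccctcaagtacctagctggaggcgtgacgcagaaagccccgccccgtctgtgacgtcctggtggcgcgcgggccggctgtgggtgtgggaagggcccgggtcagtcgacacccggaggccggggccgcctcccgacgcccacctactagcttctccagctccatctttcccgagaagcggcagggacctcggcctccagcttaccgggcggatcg
These windows are at chr17:66547475-66547774 (minus strand) for Idi1, chr2:53382054-53382353 (plus) for Hmgcs1, chr4:8057720-8058019 (minus) for Insig1 and chr4:30991443-30991742 (plus) for Cyp51. CCAAT, the letters bound by NF-Y, was found on either strand in 5 of the 6 windows (Hmgcs1, Idi1, Fdps, Lss and Insig1) and in 37.5% of 33469 promoter windows of the same length. The GC box GGGCGG was found in 5 of 6 (not in Idi1) and in 33.1% of all windows. The E-box CACGTG was found in Insig1 alone among the 6 and in 6.42% of all windows. The sterol regulatory element, searched for as TCACNCCAC on both strands, was found in 0 of the 6 windows and in 1.12% of all windows. No match of one motif overlapped a match of another in these 6 windows. A match of letters is a description and does not show binding. A missing match of these exact letters in this window does not show that a gene lacks the element. The GRCr8 positions are not those of rn6.

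Several libraries stood apart before any comparison of the 8 genes. Totals of counted reads ranged from 11094002 to 21869773, with the 8 SVZ libraries between 17269245 and 21869773. All SVZ libraries carried the name of 1 sequencing run that no other region had, so region and run cannot be told apart for the SVZ. Run and treatment could not be fully told apart in the other regions. In the NAc, 1 run held only Sal 1 and 2 and 1 only METH 3 and 4. In the DG, 1 run held only Sal 1, 2 and 4 and 1 only METH 3 and 4. In the CA, Sal 1 and 2 carried a merged label that no METH sample had. Library numbers in the file headers crossed the treatment labels in the DG: DG Sal 1 and 2 bore numbers that belonged to METH samples of the NAc and CA, and DG METH 1 and 2 bore numbers that belonged to Sal samples there. The 4 SVZ METH libraries carried 2 numbers, 1669 for METH 1 and 2 and 1670 for METH 3 and 4. Summed striatal medium spiny neuron markers (8 genes) were 1720 to 9064 CPM (read counts scaled to library size) in NAc Sal and 3371 to 3939 CPM in NAc METH 1, 2 and 4 but 268 CPM in NAc METH 3, while DG Sal 3 held 2012 CPM against 241 to 338 CPM in the other DG Sal samples. Dentate granule neuron markers (7 genes) summed to 130 to 694 CPM in the DG and 226 to 758 CPM in the CA, so they did not set the DG apart from the CA. CA pyramidal markers (7 genes) lay at 629 to 807 CPM in the CA, inside the DG range of 351 to 1469 CPM, and 1 of these genes was at 0 in some groups. Neuroblast and progenitor markers (6 genes) ran from 53.7 to 440 CPM in the SVZ and from 56.6 to 170 CPM elsewhere. Choroid plexus markers (5 genes) reached 8285 CPM in SVZ METH 3, 6188 CPM in DG METH 3, 2164 CPM in CA Sal 2 and 2073 CPM in DG Sal 4, against at most 386 CPM in all other samples. Samples were grouped by their labels throughout.

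All 8 genes were expressed in every sample, with counts from 135 (the lowest of Idi1) to 6754 (the highest of Hmgcs1). Levels between genes were compared as CPM per kilobase of exon. Hmgcs1 was the most abundant (median 80.3 CPM per kb over 32 samples), followed by Fdps (47.5), Cyp51 (43.8), Sqle (24.5), Fdft1 (23.7) and Insig1 (19.6), and Idi1 (7.40) and Lss (6.56) were the lowest. By this measure the transcripts of neighbouring steps differed widely in level, and protein was not measured. Across the 32 samples the ratio of the highest to the lowest value was 1.69 for Fdps, 2.08 for Lss and Insig1, 2.18 for Fdft1, 2.20 for Sqle, 2.37 for Cyp51, 2.60 for Hmgcs1 and 2.68 for Idi1. NAc METH 2 was the lowest of the 32 samples for 6 of the 8 genes (all except Fdps and Cyp51). NAc METH 3 was the highest for Fdps, Fdft1 and Lss. That library had few striatal marker reads, 13555 CPM of oligodendrocyte markers (6484 to 7593 CPM in the other NAc METH samples) and 4262 CPM of astrocyte markers (2959 to 3643 CPM in the others).

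**Figure D1:**
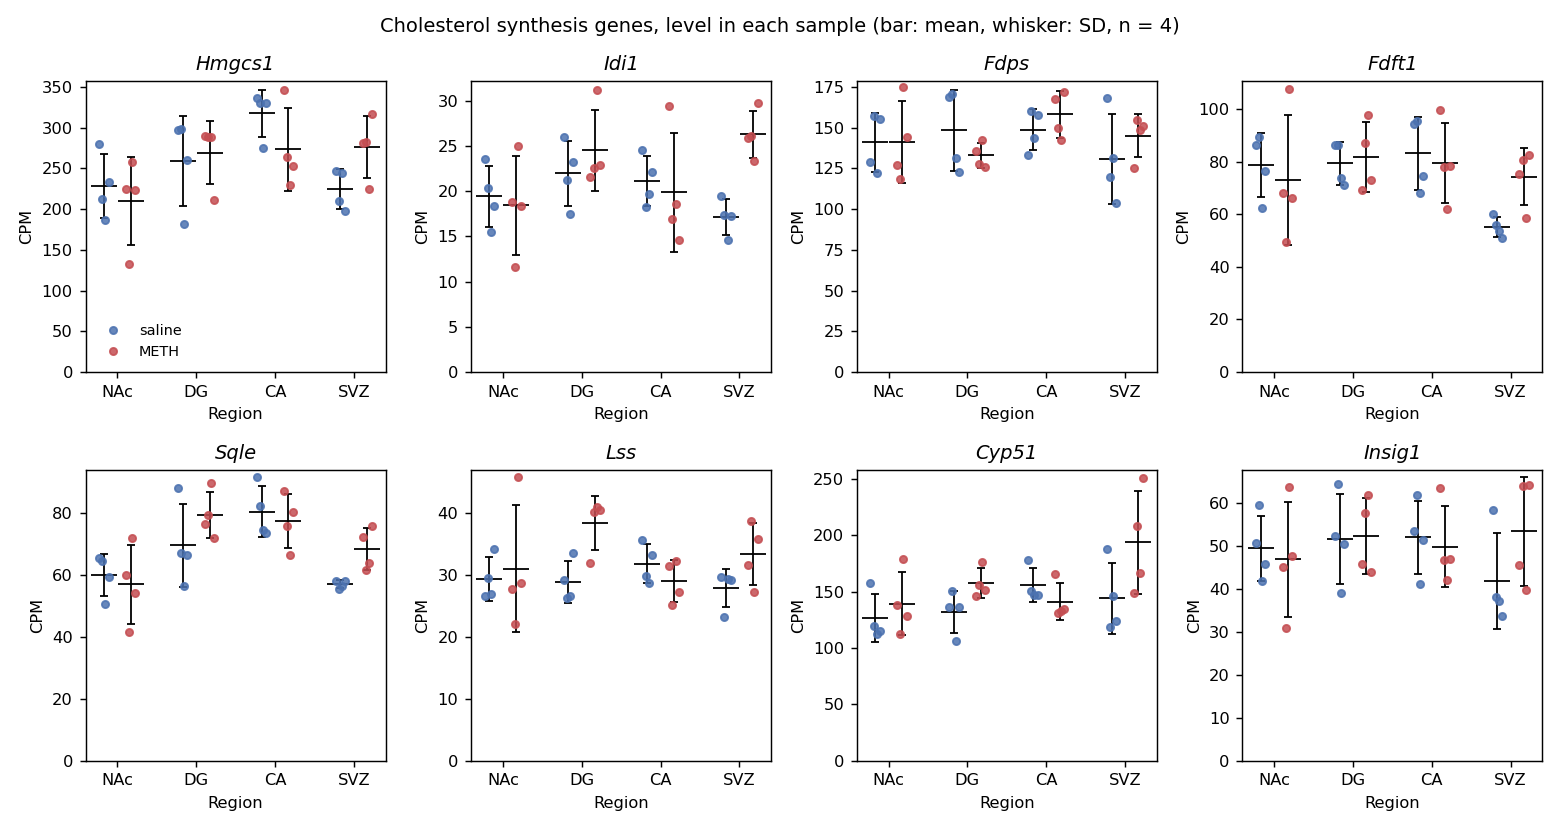
Level of each of the 8 genes in CPM (vertical axis, starting at 0) in the 4 samples of each treatment (blue saline, red METH) and region, with the mean as a bar and the SD as whiskers. Idi1 and Sqle in the SVZ are the 2 panels and region in which all 4 METH samples lie above all 4 saline samples.

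METH was compared with saline in each region with edgeR's quasi-likelihood test on the 8 samples, and a gene was called at a false discovery rate (FDR, Benjamini-Hochberg adjusted p over all genes tested) under 0.01 and a fold change above 1.5. In the SVZ all 8 genes were higher in the METH samples, by 0.16 to 0.62 on the log2 scale with a median of 0.33, where the median of all 15579 genes tested was 0.02 and 52.9% of genes were higher. None was called, as was the case for every other gene (0.0% called), and all 8 members had an FDR of 0.979. At an unadjusted p under 0.05, 3 of the 8 were higher in METH (Idi1, Fdft1 and Sqle) and 0 were lower, against 1.19% of all genes higher and 1.39% lower. All METH samples lay above all saline samples for 2 of the 8 genes (Idi1 and Sqle), against 0.847% of all genes. DESeq2 called 0 of the 8 in each of the 4 regions, and 1 gene in the NAc, 176 in the DG, 10 in the CA and 2 in the SVZ.

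Idi1, the isomerase that makes the reactive isoprenoid unit, had the largest difference. Its levels were 19.5, 17.4, 14.6 and 17.2 CPM in SVZ Sal 1 to 4 and 25.9, 26.1, 23.4 and 29.8 CPM in SVZ METH 1 to 4. Every METH sample was above every saline sample, with a gap between 19.5 and 23.4 CPM. The log2 fold change was 0.62 (SE 0.12), which is 1.53-fold, with FDR = 0.979 by edgeR's quasi-likelihood test. Leaving out each sample in turn gave 0.54 to 0.68. Wdr37, whose exons overlap Idi1, had a log2 fold change of -0.18 (SE 0.10, FDR = 0.979), with 88.2 to 112 CPM in saline and 83.7 to 93.6 CPM in METH. The part of reads from the shared bases in the difference of Idi1 was not tested.

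Fdft1, which commits farnesyl units to sterols, was at 59.9, 56.0, 53.6 and 51.0 CPM in SVZ Sal and at 75.1, 80.6, 58.6 and 82.5 CPM in SVZ METH. Only METH 3 fell inside the saline range. The log2 fold change was 0.43 (SE 0.12). Sqle, which oxidises squalene, was at 57.9, 55.4, 56.5 and 58.1 CPM in saline and at 72.4, 61.6, 63.9 and 75.8 CPM in METH. The saline values of Sqle were within 3 CPM of each other and all METH values were above them, with a log2 fold change of 0.27 (SE 0.09).

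The other 5 genes overlapped between treatments in the SVZ. Hmgcs1, an early enzyme of the chain, was at 247, 210, 245 and 197 CPM in saline and at 282, 283, 225 and 317 CPM in METH. Its log2 fold change was 0.30 (SE 0.14). Cyp51 was at 188, 119, 146 and 124 CPM in saline and at 149, 209, 167 and 251 CPM in METH, with a log2 fold change of 0.43 (SE 0.21). For both genes the spread was wide, and SVZ Sal 1 was the highest saline sample. Insig1 had its highest saline value in the same sample (58.6 CPM, against 33.7 to 38.1 CPM in Sal 2 to 4) and lay between 39.8 and 64.3 CPM in METH, with a log2 fold change of 0.36 (SE 0.23). Lss differed by 0.26 (SE 0.14) and Fdps by 0.16 (SE 0.16).

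**Figure D2:**
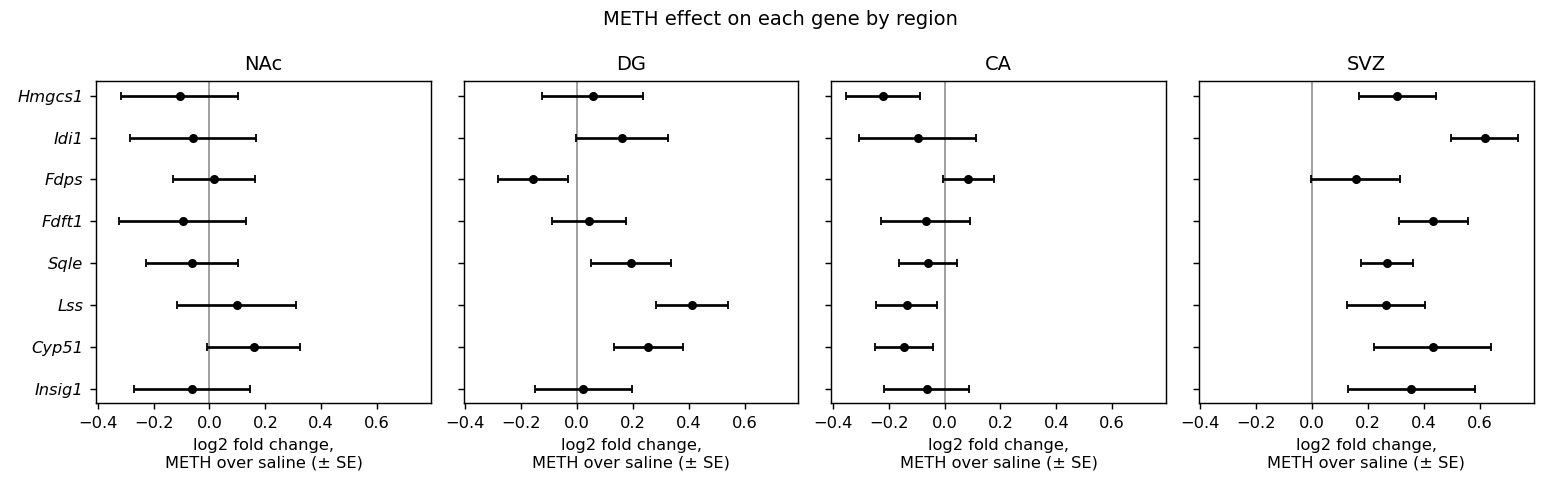
Log2 fold change of METH over saline for each of the 8 genes in the NAc, DG, CA and SVZ, with the standard error as a horizontal bar. All 8 points are to the right of 0 in the SVZ, 7 in the DG, 3 in the NAc and 1 in the CA, and none of the 32 passed the FDR threshold.

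Oligodendrocyte marker levels differed widely among the SVZ libraries. The summed level of the 9 marker genes, all detected, was 20059, 4198, 9783 and 8103 CPM in SVZ Sal and 10339, 27613, 9393 and 29320 CPM in SVZ METH, and the markers' median log2 fold change was 0.83 with 0 of 9 called. Striatal medium spiny neuron markers ran the other way, with 339, 3585, 6456 and 4290 CPM in SVZ Sal and 1764, 240, 3247 and 904 CPM in SVZ METH. METH libraries bearing 1 number between them differed in oligodendrocyte markers, 10339 against 27613 CPM in METH 1 and 2 and 9393 against 29320 CPM in METH 3 and 4. Cyp51 and Insig1 were highest in SVZ METH 2, METH 4 and Sal 1, the 3 libraries with the most marker reads. SVZ METH 1 and 3 had marker sums between those of Sal 4 and Sal 1. Idi1 (25.9 and 23.4 CPM) and Sqle (72.4 and 63.9 CPM) were above saline here too, which follows from all their METH samples being so. In the same 2 libraries Cyp51 (149 and 167 CPM), Insig1 (45.7 and 39.8 CPM) and Fdps (125 and 149 CPM) lay inside the saline range. Fdft1, Hmgcs1 and Lss were above it in METH 1 and inside it in METH 3. Without SVZ METH 2, METH 4 and Sal 1 the log2 fold change of Idi1 was 0.59 (FDR = 0.664), that of Sqle 0.27, that of Fdft1 0.32, that of Cyp51 0.29 and that of Lss 0.11. In that fit 1 of the 8 was at an unadjusted p under 0.05, as were 1080 of 16050 genes. The part of oligodendrocyte or striatal content in the differences of the 8 genes was not tested.

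**Figure D3:**
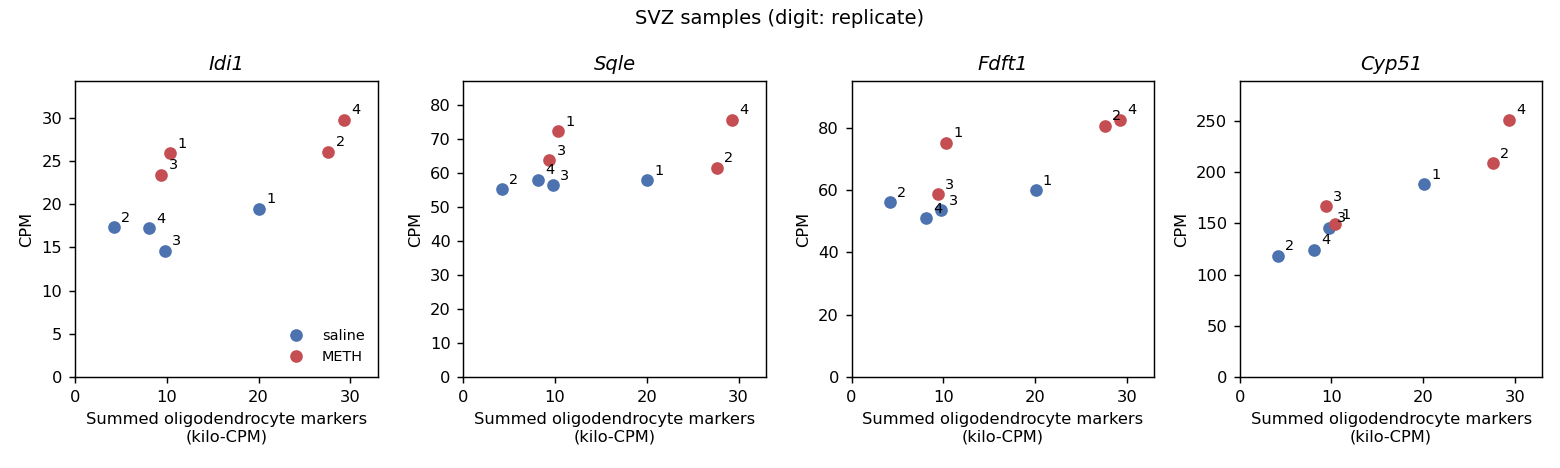
CPM of Idi1, Sqle, Fdft1 and Cyp51 (vertical axes) against the summed CPM of 9 oligodendrocyte markers (horizontal axis, in kilo-CPM) in the 8 SVZ samples, with the replicate number beside each point. Cyp51 goes up with the marker sum across both treatments, and Idi1 is higher in all 4 METH samples than in all 4 saline samples.

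The number of genes past an unadjusted p of 0.05 in the SVZ depended on single libraries. Without SVZ Sal 1 it was 7 of 8 (all except Lss), where 9.33% of all genes were higher at this p. Without METH 3, the library with 8285 CPM of choroid plexus markers, it was 5 of 8, against 2.3% of all genes higher. Without Sal 2 or METH 4 it was 2 of 8, against 0.665% (without Sal 2) and 0.873% (without METH 4) of all genes higher. Factors of unwanted variation were also part of the authors' methods, without their number. With 2 such factors 7 of 8 genes were higher at p under 0.05 (all except Lss), against 10.6% of all genes, and the lowest FDR was 0.0689 (Idi1). When the METH libraries with the same number were summed, Idi1 differed by 0.59 and Fdft1 by 0.41. These 2 remained at an unadjusted p under 0.05, as did 176 of 16105 genes. In none of the 17 settings tried was a member called in the SVZ.

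In the DG, 7 of the 8 genes were higher in METH (all except Fdps), with a median log2 fold change of 0.11 against -0.01 over all 14800 genes, of which 48.0% were higher. None was called (0.0% of all genes). Lss was the 1 member at p under 0.05, against 6.35% of all genes higher and 6.42% lower. It was joined by Sqle without DG Sal 1 (2060 of 15149 genes at this p). Without DG Sal 2 it was joined by Cyp51 (1682 of 15115 genes). Lss ran from 26.2 to 33.5 CPM in saline. Its METH values were 31.9, 40.1, 40.9 and 40.5 CPM, so 3 of 4 METH samples were above all saline samples and METH 1 was inside their range. The log2 fold change of Lss was 0.41 (SE 0.13, FDR = 0.263). Cyp51 was at 136, 150, 106 and 136 CPM in saline and at 146, 156, 176 and 152 CPM in METH, with a difference of 0.26 (SE 0.12, FDR = 0.436). Without the 4 DG samples with crossed library numbers Lss differed by 0.44 (FDR = 0.736) and Cyp51 by 0.43 (FDR = 0.739), with 2 samples left in each group. Without DG Sal 3, the library with striatal markers, the difference of Lss was 0.37 (FDR = 0.308). Hmgcs1 was lowest in DG Sal 3 (181 CPM, against 260 to 299 CPM in the other saline samples), and its difference went from 0.06 to -0.08 when that library was left out. Without DG METH 3, the library with the most choroid plexus and oligodendrocyte markers of the DG, Lss differed by 0.38 (FDR = 0.349), Idi1 by 0.02, Fdft1 by -0.06 and Insig1 by -0.07. Without DG Sal 4 the difference of Lss was 0.50 (FDR = 0.232) and Fdft1 was at 0.00. The part of the marker content was not tested.

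Of the 8 genes, 3 were higher in METH in the NAc (57.8% of all genes were), no member was at p under 0.05 (2.42% of all genes were higher and 0.968% lower at this p) and 0.0% of 14771 genes were called. The log2 fold changes ran from -0.11 (Hmgcs1) to 0.16 (Cyp51), with a median of -0.06 against 0.03 over all genes. The METH samples were far apart. Fdft1 was at 68.1, 49.3, 108 and 66.3 CPM in NAc METH and at 86.3, 89.3, 62.5 and 76.3 CPM in NAc Sal, so that METH held both the lowest and the highest value. Without NAc METH 3, the library with few striatal markers, 7 of the 8 genes were lower in METH, and Fdft1 differed by -0.35 (FDR = 0.944). Without NAc METH 2 all 8 were higher, by 0.04 to 0.24.

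In the CA, 7 of 8 genes were lower in METH (all except Fdps), with a median of -0.08 against 0.01 over all 14612 genes, of which 51.1% were higher, and none was called (0.0% of all genes) or at p under 0.05 (4.37% higher and 2.79% lower). Hmgcs1 was at 336, 330, 274 and 330 CPM in CA Sal and at 346, 263, 230 and 253 CPM in CA METH, with a log2 fold change of -0.22 (SE 0.13, FDR = 0.725). METH 1 was the highest of the 8 and the other METH samples were below all saline samples. CA METH 1 also held the highest METH value of Idi1 (29.5 CPM, against 14.7 to 18.6 CPM) and Cyp51 (166 CPM, against 131 to 135 CPM), and 8776 CPM of oligodendrocyte markers against 2524 to 3492 CPM in the other METH samples. Without it, Hmgcs1 (-0.35, FDR = 0.356), Cyp51 (-0.23, FDR = 0.429) and Idi1 (-0.34, FDR = 0.433) were at an unadjusted p under 0.05, as were 1639 of 14874 genes. Without CA Sal 2, the library with choroid plexus markers, the differences ran from -0.20 (Hmgcs1) to 0.12 (Fdps), with Fdft1 at 0.01 and Insig1 at 0.03. The part of the marker content was not tested.

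The mean METH effect over the 4 regions was above 0 for all 8 genes, from 0.00 (Hmgcs1) to 0.17 (Cyp51), against 52.3% of 16122 genes. None was called (0.0%), and Cyp51 alone was at p under 0.05 (0.17, SE 0.08, FDR = 0.632), against 4.29% of all genes higher. With single libraries left out this count was 0 for 18 of the 32 libraries and at most 3 (without NAc METH 2, where 1398 of 16343 genes were at this p). The difference of the METH effect among the regions, tested as an interaction, was called for none of the 8 genes (0.0% of all genes), and 0 of 8 were at p under 0.05, against 7.74% of all genes. The lowest FDR was that of Idi1 (FDR = 0.69). Without NAc METH 3 the count at p under 0.05 was 3, against 9.15% of all genes. It was 1 without NAc Sal 3 (7.02% of all genes), DG METH 3 (8.66%), CA METH 1 (7.79%) or SVZ Sal 1 (14.5%). Of the other pathway genes, Npc2 (0.24, FDR = 0.544), Dhcr7 (0.18, FDR = 0.561) and Soat1 (0.22, FDR = 0.567) had the lowest unadjusted p for the mean effect, and Pmvk (FDR = 0.55), Nsdhl (FDR = 0.589) and Mbtps2 (FDR = 0.664) for the difference among regions. The SVZ difference of Idi1 was therefore not shown to differ from those in the other regions.

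The other enzymes of the chain were followed as a list of 14, of which 13 were counted (Lbr was not found under this name). In the SVZ, 12 of the 13 were higher in METH (all except Hsd17b7), with a median log2 fold change of 0.28, where 52.9% of all genes were higher. None of the 13 was called. At p under 0.05, where 1.19% of all genes were higher and 1.39% lower, 5 of them were higher and 0 lower. These included Acat2 (0.42, SE 0.17), which makes acetoacetyl-CoA, Msmo1 (0.41, SE 0.15) and Nsdhl (0.33, SE 0.14), which remove methyl groups from the sterol ring, and Dhcr7 (0.33, SE 0.13), a late reductase of the chain. Msmo1 was at 80.5, 62.0, 68.1 and 66.2 CPM in SVZ Sal and at 85.7, 94.0, 74.2 and 113 CPM in SVZ METH, with 1 METH sample inside the saline range. In the DG, 9 of 13 were higher, with a median of 0.15, where 48.0% of all genes were higher. Dhcr7 was at 20.4 to 25.4 CPM in DG Sal and 28.2 to 31.4 CPM in DG METH (0.37, SE 0.10, FDR = 0.219), with no overlap, as for 3.91% of all genes. Pmvk, a kinase of the mevalonate steps, was lower (-0.79, SE 0.33, FDR = 0.372), with 54.9 CPM in DG Sal 4 against 17.2 to 26.2 CPM in the other saline samples. In the CA, 11 of 13 were lower, where 51.1% of all genes were higher. Sc5d alone was at p under 0.05 (-0.26, SE 0.10, FDR = 0.686), where 2.79% of all genes were lower at this p. Tm7sf2 (-0.32, SE 0.16) and Nsdhl (-0.22, SE 0.11) were next. In the NAc, 7 were higher and 6 lower, where 57.8% of all genes were higher. None of the 13 was at p under 0.05 there, against 2.42% of all genes higher and 0.968% lower.

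**Figure D4:**
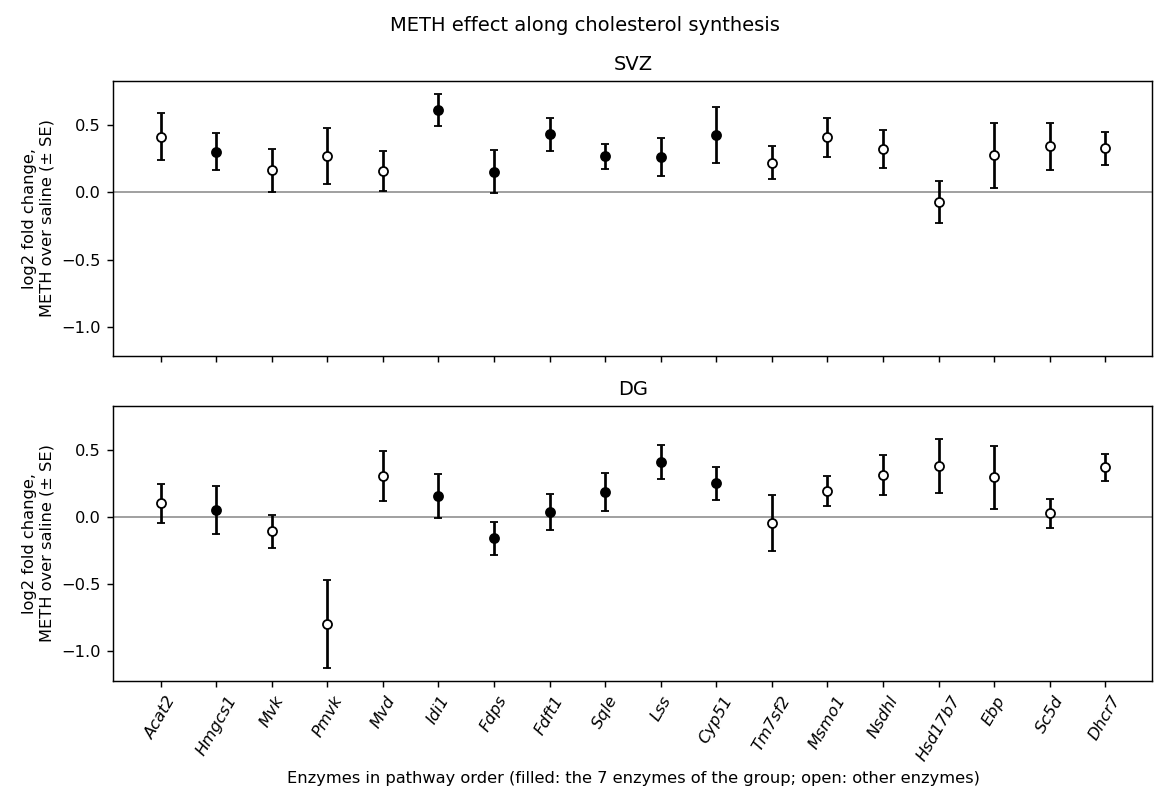
Log2 fold change of METH over saline, with standard errors, for 18 enzymes in the order of the pathway in the SVZ (top) and DG (bottom), with the 7 enzymes of the group filled and 11 other enzymes open. In the SVZ 17 of the 18 are above 0, and in the DG Pmvk is the lowest at -0.79.

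Of 10 regulators of the pathway, 9 passed the filter in each region and 0 were called. Srebf2, which encodes the SREBP most tied to cholesterol genes, was at 256 to 370 CPM in SVZ Sal and 278 to 373 CPM in SVZ METH (-0.02, SE 0.17). In the DG, Mbtps2, a protease that frees SREBP from the membrane, was the 1 regulator at p under 0.05 (0.33, SE 0.12, FDR = 0.309). At this p 6.35% of all genes were higher in the DG. Of 15 genes for uptake, transport, efflux and turnover, 0 were called in any region. In the SVZ, Cyp46a1, the neuronal enzyme that clears cholesterol from the brain, was lower (-0.44, SE 0.18, FDR = 0.979). In the DG, Soat1, which esterifies cholesterol, was higher at p under 0.05 (0.63, SE 0.18, FDR = 0.235). None of these genes passed that mark in the NAc, where Lcat, which esterifies cholesterol in lipoproteins, had the lowest unadjusted p (1.51, SE 0.71, FDR = 0.999), followed by Ch25h (0.74, SE 0.44) and Npc2 (0.30, SE 0.18).

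The 4 regions were compared in the 16 saline samples. At FDR under 0.01, 0 of the 8 genes and 0.0% of 15515 genes differed, and at FDR under 0.05 Fdft1 alone of the 8 (FDR = 0.0451) and 5.79% of all genes did. Fdft1 was lowest in the SVZ (51.0 to 59.9 CPM), below every saline sample of the NAc (62.5 to 89.3 CPM), DG (71.0 to 86.4 CPM) and CA (68.1 to 95.5 CPM). The CA exceeded the SVZ by 0.59 (SE 0.13, FDR = 0.0154), while the NAc, DG and CA differed from each other by at most 0.08. Sqle was highest in the CA (mean 80.4 ± 8.32 CPM, SD, n = 4), followed by the DG (69.5 ± 13.3), NAc (60 ± 6.84) and SVZ (57.0 ± 1.26). Neighbours in this order did not differ beyond their spread, and the CA exceeded the SVZ by 0.50 (SE 0.13, FDR = 0.0229). Hmgcs1 had the same order, from 318 ± 28.9 CPM in the CA over 259 ± 55.1 in the DG and 228 ± 39.5 in the NAc to 225 ± 24.9 CPM in the SVZ, and the CA exceeded the SVZ by 0.50 (SE 0.16, FDR = 0.0537). In CA against SVZ 0 members passed FDR under 0.01 with a fold above 2, as 0.812% of all genes did. In the test over the 4 regions, Hmgcs1, Sqle and Fdft1 were at an unadjusted p under 0.05, 3 of 8 against 26.7% of all genes. Idi1, Fdps, Lss, Cyp51 and Insig1 had FDR from 0.316 to 0.71. Of the other pathway genes, Nsdhl (FDR = 0.0289) and Mylip (FDR = 0.0344) had the lowest FDR over the 4 regions. With DESeq2, Fdft1 (FDR = 0.00187) and Sqle (FDR = 0.00504) passed the threshold of 0.01, as 6.16% of all genes did.

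In the 16 METH samples 10.7% of 15615 genes differed among regions at FDR under 0.01, and 0 of the 8 did. The lowest were Sqle (FDR = 0.0598) and Cyp51 (FDR = 0.0879). Among the other pathway genes Srebf2 (FDR = 0.00196), Pmvk (FDR = 0.00419) and Mylip (FDR = 0.00573) did differ. At an unadjusted p under 0.05 were 2 of the 8 and 6864 of 15615 genes. The count was 5 without NAc METH 3 (7634 of 15841 genes were at this p) and 0 without NAc METH 4 (6293 of 15875 genes). Fdft1 of the SVZ METH samples (58.6 to 82.5 CPM) overlapped those of the other regions (FDR = 0.876 over the 4 regions). Sqle was lowest in the NAc (mean 56.9 ± 12.7 CPM) and highest in the DG (79.4 ± 7.48 CPM), with a log2 difference of the NAc from the DG of -0.48 (SE 0.14, FDR = 0.0405). Cyp51 was highest in the SVZ (194 ± 45.6 CPM), and the log2 difference of the CA from the SVZ was -0.46 (SE 0.16, FDR = 0.0507). The order of the region means was not the same in saline and METH samples for any of the 8 genes. The interaction passed the threshold for none of them (FDR = 0.79 for Cyp51 and higher for Fdft1).

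The 8 genes varied together from sample to sample. After removal of the mean of each of the 8 groups, Pearson's r of log2(CPM + 1) over the 32 samples was above 0 for all 28 pairs, with a median of 0.65, from 0.35 (Fdps and Lss) to 0.85 (Fdft1 and Insig1). Insig1 was also closely tied to Cyp51 (0.80) and Hmgcs1 (0.78), and Sqle to Fdft1 (0.82). Fdps was the least tied to the others. These correlations are a description: both values of a pair come from the same library and share its depth and tissue composition. For comparison with other genes, the mean of the 8 standardized values was correlated with every gene, and its median r over 16151 genes was -0.03 against 0.66 over the 13 other enzymes. Outside the group Msmo1 (0.89) was the closest, and among genes outside the lists Pla2g7 (0.79), Tcp11l1 (0.77), Fam98a (0.76), Fam43a (0.75), Acaca (0.75), Cxxc5 (0.74), Acss2 (0.74), Fam189a2 (0.74), Birc7 (0.74) and Arl8a (0.72) were the closest. Acaca makes malonyl-CoA for fatty acids and Acss2 makes acetyl-CoA from acetate, and both are known SREBP targets. Regulators had a median of 0.19, with Mbtps1 at -0.74. Of the summed marker lists, oligodendrocyte markers had r = 0.54, neuron markers 0.46, endothelial markers 0.38 and astrocyte markers 0.17. Choroid plexus (0.09), ependymal (0.08) and microglia (0.02) markers were near 0. The lists of single neuron types were below 0: striatal medium spiny neuron -0.59, CA pyramidal -0.46 and dentate granule -0.28. Neuroblast and progenitor markers were at -0.41. Without removal of the group means the median over the 28 pairs was 0.62, and Tcp11l1 (0.81), Acaca (0.80), Fam98a (0.79), AABR07044080.2 (0.79), Arl8a (0.78), Agpat4 (0.77), Cxxc5 (0.77), Fam43a (0.76), Pla2g7 (0.76) and S100a10 (0.75) were the closest outside the lists.

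**Figure D5:**
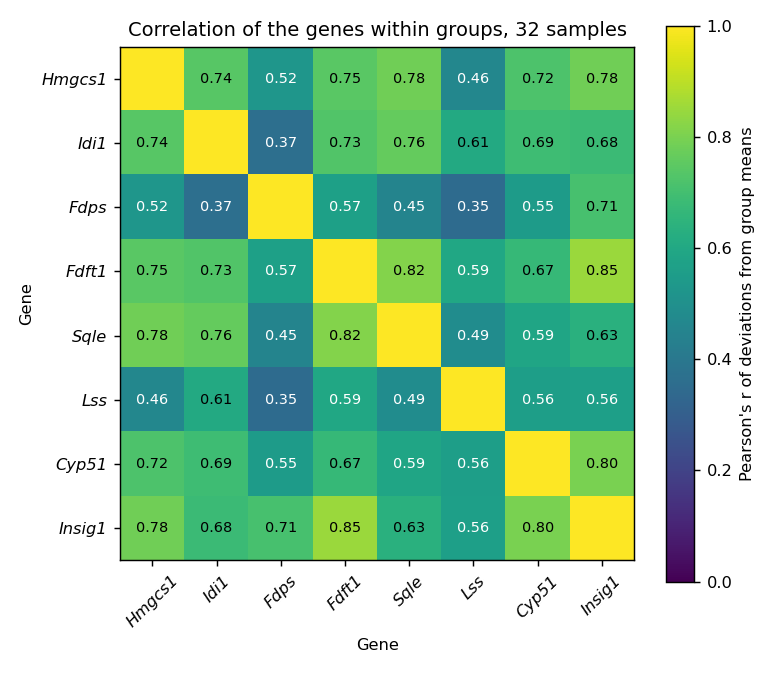
Pearson's r between the 8 genes over 32 samples, computed on log2(CPM + 1) after the mean of each region and treatment group was removed, with the value written in each cell and colour from 0 (dark) to 1 (light). All 28 pairs are above 0, and Fdps and Lss have the lowest value (0.35).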

How the data were processed

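Total RNA of 32 tissue samples (NAc, DG, CA and SVZ, 4 METH and 4 Sal each) was sequenced as read pairs. The authors deposited 1 table of read counts per gene for each sample. Per the labels, the file headers and the study's methods, reads were checked with FastQC (0.11.4), trimmed with cutadapt (2.7), aligned to rn6 with STAR (2.5.2b) and counted over exons with featureCounts (1.6.3), without strand and with a minimum mapping quality of 10. The headers name an Ensembl annotation and the methods a UCSC one, and the coordinates given here are those of the files.

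Counts were fitted with edgeR 4.0.16 (quasi-likelihood, upper-quartile normalization, filterByExpr, Benjamini-Hochberg adjustment over all genes) in R 4.3.3, per region for METH against saline, over all 32 samples for the mean effect and the interaction, and over 16 samples for regions. The threshold was FDR under 0.01, with a fold above 1.5 for treatments and 2 for pairs of regions. CPM used upper-quartile library sizes over all 32 samples, where 1 read was worth 0.0459 to 0.094 CPM. SE was the log2 fold change divided by the root of F. The 48 pairs of replicates differed by more than counting noise (chi-square per gene 15.4 to 178). The code was tested on simulated data. The 8 genes were all named. Of the other pathway genes, those past the threshold were to be named, or otherwise the 3 with the lowest p in each comparison (those of the 12 single pairs of regions are not described, and some pathway genes are not reported here). Acat2, Mbtps1 and Cyp46a1, and the leaving out of the 3 SVZ libraries richest in oligodendrocyte markers, were chosen after their values were seen. Outside the lists, the 10 genes most like the mean of the 8 were named. Members and lists were chosen with earlier results of these data known. Alternatives were DESeq2 1.42.0, TMM, no filter, RUVr with 2 factors, the run as read from the header tags, a replicate block, 1 fit of all samples, and leaving out libraries. Figures were drawn with matplotlib 3.10.9.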

Additional observations from a re-analysis of the deposited data

Results flagged for a closer look

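In 8 of 64 groups of 4 samples, 1 sample lay far from the other 3, by a gap to its neighbour above Dixon's critical value for the share of the group's range. Chance flags about 1 group in 20, or 3.2 of 64, and the genes share samples, so these are not independent. Hmgcs1 was at 211 CPM in its lowest DG METH sample (the others 288 to 290 CPM) and at 274 CPM in its lowest CA Sal sample (the others 330 to 336 CPM). Idi1 reached 31.2 CPM in DG METH 3, against 21.5 to 22.9 CPM in the others. That library had 6188 CPM of choroid plexus markers and 15629 CPM of oligodendrocyte markers (3146 to 9224 CPM in the other DG METH samples), whose part was not tested. Lss was at 31.9 CPM in DG METH 1 (the others 40.1 to 40.9 CPM) and at 23.2 CPM in SVZ Sal 2 (the others 29.1 to 29.7 CPM). Cyp51 had a high sample in 3 groups: 158 CPM in NAc Sal (the others 112 to 119 CPM), 178 CPM in CA Sal 1 (the others 147 to 151 CPM) and 166 CPM in CA METH 1 (the others 131 to 135 CPM).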

How the results depend on the processing

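None of the 8 genes was called for METH in any region under any of the settings tried, and the SVZ difference of Idi1 kept its direction and its unadjusted p under 0.05 in all 17. The number of members at an unadjusted p under 0.05 moved. With 2 RUVr factors it was 7 in the SVZ, 2 in the DG and 1 in the CA, where 3030 of 14800 genes (DG) and 1947 of 14612 genes (CA) were at this p. With the run as a covariate it was 2 in the DG, but only 1 run held both DG treatments, with DG Sal 3 as its single saline library against METH 1 and 2, so that this fit says nothing about stability. Without the 4 DG samples with crossed library numbers it was 0 in the DG, where 1033 of 15368 genes were at this p. Without the 3 SVZ libraries richest in oligodendrocyte markers, chosen after seeing the data, it was 1 in the SVZ (1080 of 16050 genes). For the mean effect it was 0 with DESeq2, TMM, no filter, the replicate block and without those 3 libraries. Among regions in saline DESeq2 called 2 members and 1459 genes, against 0 of each with edgeR.

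With the replicate number as a block, 1 member was at p under 0.05 in the CA, 1 among regions in METH samples, and 2 in the SVZ. In these fits 1131 of 14612, 6424 of 15615 and 167 of 15579 genes were at this p, in the same order. Hmgcs1 had a mean effect of -0.0035 with the block. The numbers are not given as marking shared animals between treatments, and not every same-numbered saline and METH pair of a region deviated together (r of -0.27 to 0.28 in the NAc, -0.20 to 0.37 in the DG with 3 of 4 above 0.1, -0.27 to 0.40 in the CA and -0.77 to 0.36 in the SVZ). All 4 pairs were above 0.1 for NAc Sal with CA Sal (0.12 to 0.24), which share library numbers, and for NAc Sal with CA METH (0.20 to 0.26), which do not.

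Small differences changed sign. In the NAc, Fdps was at -0.0203 with DESeq2, -0.0167 with TMM, -0.0053 with no filter and -0.1693 with the run as a covariate, where Lss was at -0.2867. In the CA with the run as a covariate, Sqle was at 0.06, Fdft1 at 0.1457 and Insig1 at 0.1054. These run fits compare treatments only within runs that held both, so they rest on few samples. In the NAc these were Sal 3 and 4 with METH 1 and 2. In the CA they were Sal 3 with METH 3 and 4 and Sal 4 with METH 1 and 2. In the DG without the crossed samples Fdps was at 0.0722. The mean effect of Hmgcs1 was -0.0084 with DESeq2, -0.0048 with TMM, -0.0076 with no filter and -0.0201 without the 3 SVZ libraries. The cause was not tested.

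Leaving out 1 library at a time gave 2 to 7 members at p under 0.05 in the SVZ, 1 to 2 in the DG, 0 to 3 in the CA, 0 to 3 for the mean effect, 0 to 3 for the difference among regions and 0 to 5 among regions in METH samples. The number of all genes at this p moved as well, from 156 to 2596 in the SVZ, 1225 to 2070 in the DG and 623 to 1639 in the CA. In the NAc leaving out 1 library gave -0.2229 to 0.0517 for Hmgcs1, -0.1983 to 0.0551 for Sqle, -0.244 to 0.1002 for Idi1, -0.3489 to 0.0447 for Fdft1, -0.2489 to 0.0835 for Insig1, -0.1063 to 0.0856 for Fdps and -0.1531 to 0.2237 for Lss. In the DG it gave -0.0883 to 0.1435 for Insig1, -0.0558 to 0.1165 for Fdft1 and -0.0806 to 0.1559 for Hmgcs1. In the CA it gave -0.119 to 0.0112 for Sqle, -0.1918 to 0.0322 for Fdft1, -0.2002 to 0.0305 for Insig1 and -0.3429 to 0.0274 for Idi1. For the mean effect it gave -0.0317 to 0.0439 for Hmgcs1 and -0.0113 to 0.0548 for Fdps. The run could not be a covariate in the SVZ, which has 1 run.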
